A study of Caenorhabditis elegans with 3 samples.

Results

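The LET-418 binding sites described here lie in the centre of chromosome III of Caenorhabditis elegans, the middle part of the chromosome in which meiotic recombination is rare. They are the peaks of the combined list of the authors whose midpoint lies above position 3722000 and at or below 10340000 on chromosome III (WormBase WS220), a span of 6.62 Mb. Of the 9187 combined peaks on all chromosomes, 708 met this rule, and the peak score played no part in it. The outermost member on the left ran from 3734068 to 3734260 with a score of 3.35, and the nearest peak outside ran from 3703533 to 3703696 with a score of 3.58. On the right, the last member ran from 10337745 to 10337940 with a score of 1.56, and the next peak outside ran from 10378877 to 10379025 with a score of 2.90.

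LET-418 is a worm counterpart of the Mi-2 ATPases, which move nucleosomes and act in the NuRD complex together with histone deacetylases. In the worm it belongs to the genes that keep vulval cell fates and germline genes in check in somatic cells, and it has been linked to the control of the Hox gene lin-39 during vulval development, which takes place in L3 larvae. Hox genes encode homeodomain transcription factors that set positional identity along the body. The autosomal centres of the worm are known as gene-dense parts that hold many broadly expressed genes, while the arms recombine more and hold more repeats.

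The data are ChIP-seq peak lists from wild-type L3 larvae of strain N2, a mixed population of males and hermaphrodites kept at 20 °C. All samples were crosslinked with EGS for 20 min and with EGS plus formaldehyde for 10 min. The chromatin was made from whole larvae, so the lists do not tell which tissue a site was bound in. A single group was tested, LET-418 ChIP with 2 replicates, precipitated with an affinity-purified rabbit polyclonal antibody, beside 1 input DNA library that was not analysed here. Whether the replicates came from separate cultures is not given, so their spread may be technical. The peak score is the authors' own value, its scale is unknown, and it serves below for correlations at sites found in several lists and otherwise to order a list's own peaks. With 1 group and no read counts, no condition could be tested and the depth is unknown. Intervals are at 95%, exact Poisson for densities and Wilson for shares. They cover counting error only and take peaks as independent, which clustered peaks are not.

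LET-418 sites were found all along the centre, most densely in its left part. The combined list held 107 peaks per Mb there (99.2 to 115), covering 223 kb or 3.37% of the centre. The replicate 1 list held 1161 peaks in the same span (175 per Mb, 165 to 186) and the replicate 2 list 819 (124 per Mb, 115 to 133). With the centre cut into 3 equal parts, the left part held 121 combined peaks per Mb (106.5 to 136), the middle 102 (89.1 to 116) and the right 98.4 (85.7 to 112). Replicate 1 gave 204, 163 and 159.6 per Mb in the same order, and replicate 2 gave 139, 121 and 112. The left part was the densest in each list. In replicate 1 its interval (185 to 223) lay above that of the middle (147 to 181), while in the combined list and in replicate 2 the intervals of neighbouring parts overlapped.

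At finer scale crowded and sparse bins alternated, mostly at the same places in both replicates. In the 65 bins of 100 kb that lie whole inside the centre, the combined list held 0 to 32 peaks, with a median of 10 and quartiles of 6 and 13, and the variance was 4.63 times the mean. The 7 bins with 20 or more peaks held 184 of the 688 binned peaks (26.7%). Across the 65 bins, the counts of the replicates had a Spearman's rho of 0.88 and a Pearson's r of 0.90, which describes neighbouring bins of the same libraries. Replicate 1 exceeded replicate 2 in 55 bins, equalled it in 3 and was below it in 7.

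The densest bins lay in a belt near the left middle of the centre, in 1 bin of its middle and, with fewer peaks, towards both edges. From 5900001 to 6000000 there were 32 combined peaks, with 50 in replicate 1 and 33 in replicate 2. From 7700001 to 7800000 there were also 32, with 34 and 32 in the replicates. Then came 5600001 to 5700000 with 27 combined peaks (48 and 31), and 5800001 to 5900000 with 25 (32 and 24). Next, with 23 combined peaks each, stood 3800001 to 3900000 (39 and 22) and 9800001 to 9900000 (26 and 25). In replicate 1 a further bin stood high, from 6300001 to 6400000, with 40 peaks against 20 in replicate 2 and 14 in the combined list.

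The sparsest bin, from 6700001 to 6800000, held no combined peak, 1 replicate 1 peak and no replicate 2 peak. The bin from 9300001 to 9400000 held 1 combined peak and 2 in each replicate. The bins from 4800001 to 4900000 and from 9900001 to 10000000 held 2 combined peaks each, with 3 and 2 in replicates 1 and 2 in the first of these and 5 and 3 in the second. A further 5 bins held 3 each, starting at 6000001, 7000001, 7800001, 8000001 and 10000001. Sparse bins were sparse in each list: these 9 bins held 1 to 7 peaks in replicate 1 and 0 to 4 in replicate 2.

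**Figure D1:**
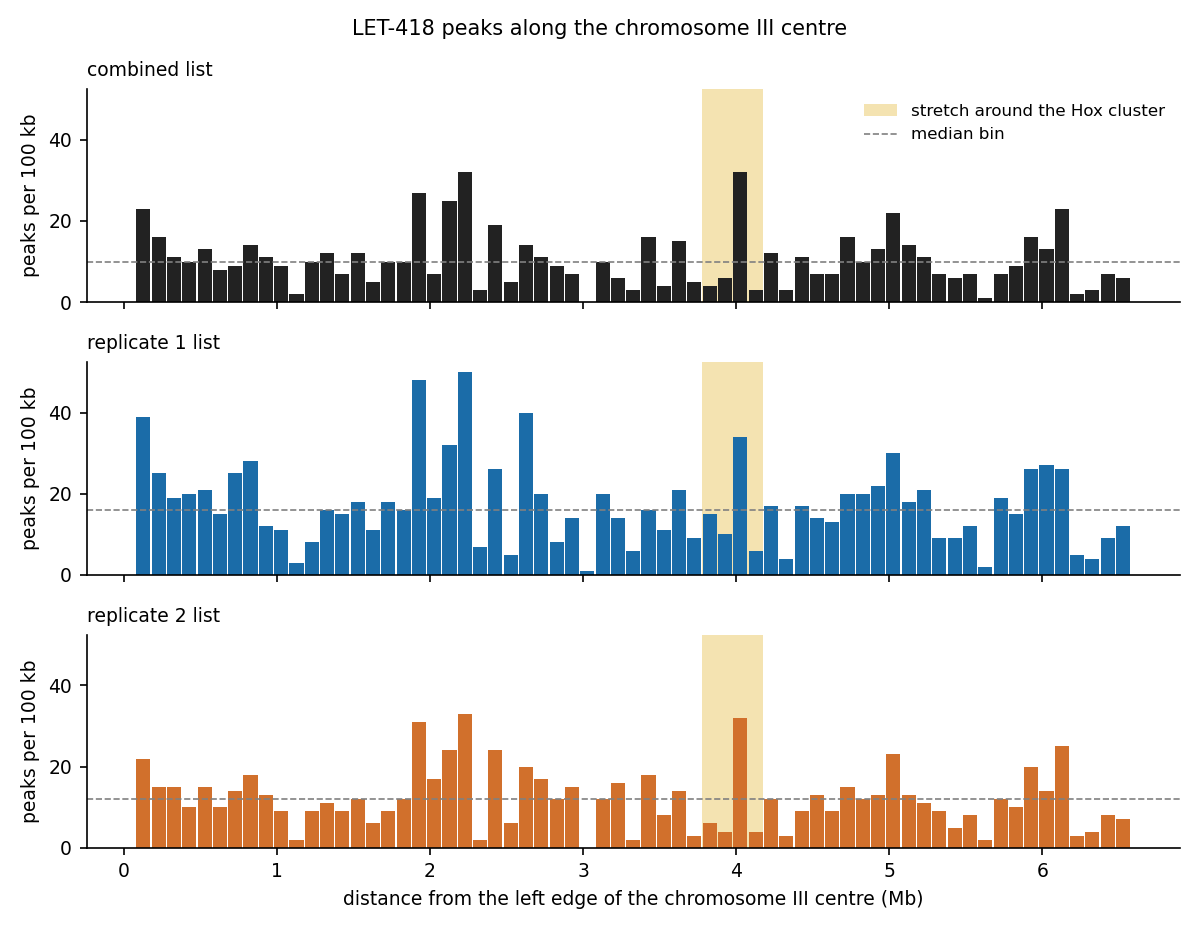
LET-418 peaks per bin of 100 kb (y axis) along the chromosome III centre, by distance in Mb from its left edge (x axis), in the combined list and the lists of replicates 1 and 2. The shaded stretch is the one around the Hox cluster, and dashed lines give the median bin of each list (10 peaks in the combined list); within the stretch 1 bin stands high, with 32 combined peaks, and the other bins hold 3 to 6.

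The stretch from 7.5 to 7.9 Mb, which holds the Hox cluster, was singled out as a dense one from earlier results of these data. Over its whole length its density was close to that of the rest of the centre. It held 45 combined peaks, or 112.5 per Mb (82.1 to 151), against 106.6 per Mb (98.7 to 115) in the rest of the centre, a ratio of 1.06. In the replicate lists it was slightly sparser than the rest, with 162.5 against 176 per Mb in replicate 1 (ratio 0.922) and 115 against 124 in replicate 2 (ratio 0.925). Each interval of the stretch covers the density of the rest. Among 62 overlapping windows of 400 kb placed every 100 kb along the centre, 20 held more combined peaks than this one, 1 as many and 40 fewer. In replicate 1, 29 held more, and in replicate 2, 30. The window with the most peaks in each list was another, from 5600001 to 6000000, with 91 combined peaks, 149 in replicate 1 and 105 in replicate 2. It was picked after its counts were seen.

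Within the stretch the sites were bunched at 1 place. Its bins of 100 kb held 4, 6, 32 and 3 combined peaks from left to right, 15, 10, 34 and 6 in replicate 1, and 6, 4, 32 and 4 in replicate 2. A single region of joined peaks, from 7718354 to 7731879, held 23 of the 45 (51.1%). The same span held 17 of 65 peaks in replicate 1 (26.2%) and 18 of 46 in replicate 2 (39.1%), smaller shares than in the combined list. Without this region and its span the stretch held 56.9 combined peaks per Mb, and the ratio to the rest of the centre was 0.534. The rest kept its own largest regions, so a lower ratio follows from the removal and does not show that the stretch is otherwise sparse. When each region of joined peaks and each single peak was counted once, the ratio was 0.631. The replicate lists without the region held 124 and 72.4 peaks per Mb there. The stretch was close to the rest of the centre in width (median 226 against 230 bp), and 43 of its 45 peaks (95.6%, 85.2 to 98.8%) were found in both replicates, against 92.6% (90.4 to 94.4%) in the rest. Neighbouring midpoints lay closer together in the stretch, with a median of 770.5 against 1510.5 bp in the rest. The medians were 1140 against 1249 bp in replicate 1 and 892 against 1497.5 bp in replicate 2. Regions of joined peaks held 80.0% of the stretch's combined peaks (66.2 to 89.1%), against 68.0% in the rest. The shares were 72.3% against 72.1% in replicate 1 and 80.4% against 69.9% in replicate 2.

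The other sites of the stretch were few and can be named. To the left of the large region, single peaks ran from 7548951 to 7549114, 7570511 to 7570931, 7572931 to 7573151, 7584068 to 7584223, 7642059 to 7642286 and 7644381 to 7644575. A region of 4 peaks followed from 7659223 to 7661212, of which 2 were in both replicates, and a second one from 7710040 to 7712128, all of them in both. The first peak of that second region, from 7710040 to 7710779, reached the ceiling of the combined score. To the right came a region of 3 weak peaks from 7733745 to 7735662 with combined scores of 1.32 to 2.20, single peaks from 7738543 to 7738758 and from 7770047 to 7770204, and then 84.2 kb without a combined peak. The next site, from 7854406 to 7854753, was also at the ceiling and scored 36.0 in replicate 1 and 32.4 in replicate 2. A pair of peaks from 7891862 to 7892921 closed the stretch.

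The cluster's genes are, in the order of RefSeq's table for WBcel235, lin-39, ceh-13, mab-5 and egl-5. The table places the Hox genes php-3 and nob-1 on III as well, apart from these 4. No protein-coding gene is annotated between lin-39 and ceh-13, 37 lie between ceh-13 and mab-5, and 1 lies between mab-5 and egl-5. lin-39 acts in the midbody and the vulval precursor cells, ceh-13 is the worm's labial-class gene and acts in anterior cells, mab-5 acts in the posterior body and egl-5 in the tail. That table is on another build than the peaks, so no peak was assigned to any of these genes.

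The large region was a chain of closely set sites that both replicates held, and no single broad peak. Its 23 combined peaks spread over 13526 bp and covered 67.5% of it. Their widths ran from 149 to 1189 bp (median 263 bp), their scores from 1.43 to 7.81 (median 3.31), and neighbouring midpoints lay 292 to 980 bp apart (median 535 bp). All 23 were found in both replicates by an overlap of at least 1 bp, where a wide replicate peak can count for several of them. Replicate 1 divided the same span into 17 peaks (scores 1.65 to 23.96, widest 1659 bp) and replicate 2 into 18 (scores 2.33 to 17.5, widest 2093 bp), which covered 9975 and 10592 bp of it. The highest score in the combined list and in replicate 1 was that of the first peak, from 7718354 to 7718551 in the combined list. In replicate 2 the widest peak, from 7728330 to 7730422, scored highest.

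**Figure D2:**
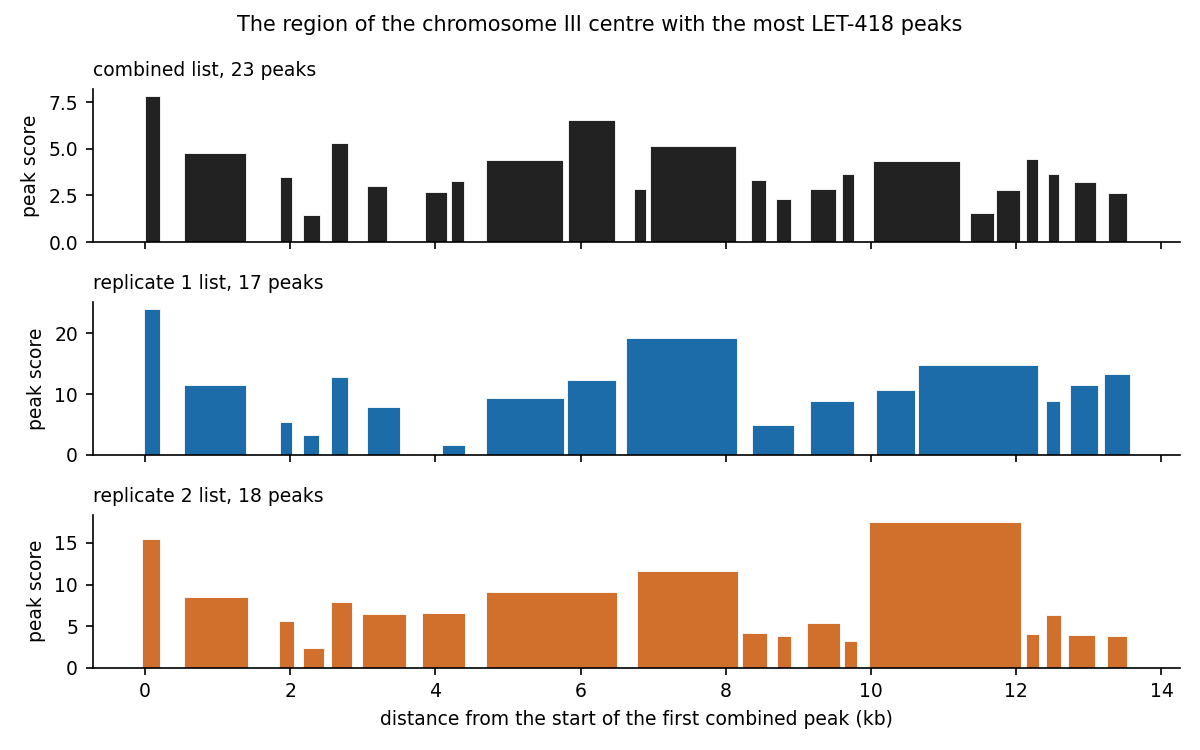
Peaks of the region from 7718354 to 7731879 as bars, with their extent along the x axis (kb from the start of the first combined peak) and their score on the y axis, in the combined list and the lists of replicates 1 and 2. The 23 combined, 17 replicate 1 and 18 replicate 2 peaks follow each other over the whole length. Their places recur in each list near both ends, while in between some replicate peaks span several combined peaks.

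Throughout the centre, sites tended to sit next to other sites. The median distance between neighbouring midpoints was 1413.5 bp, while the mean was 9340.4 bp and the standard deviation 1.96 times the mean. Replicate 1 had a median of 1244 bp and a mean of 5697 bp, and replicate 2 a median of 1400.2 bp and a mean of 8073 bp. Over the whole combined list the median was 1577.5 bp, the mean 10885 bp and the standard deviation 2.15 times the mean. The whole replicate lists had medians of 1340 and 1581.5 bp, so close spacing was not particular to the centre. Of 707 neighbouring pairs in the centre, 127 (18.0%) were under 500 bp apart and 175 (24.8%) from 500 to under 1000 bp. Together, 42.7% of the pairs lay under 1 kb apart. The rest were spread out to 50 kb and beyond, where 28 pairs (3.96%) lay.

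**Figure D3:**
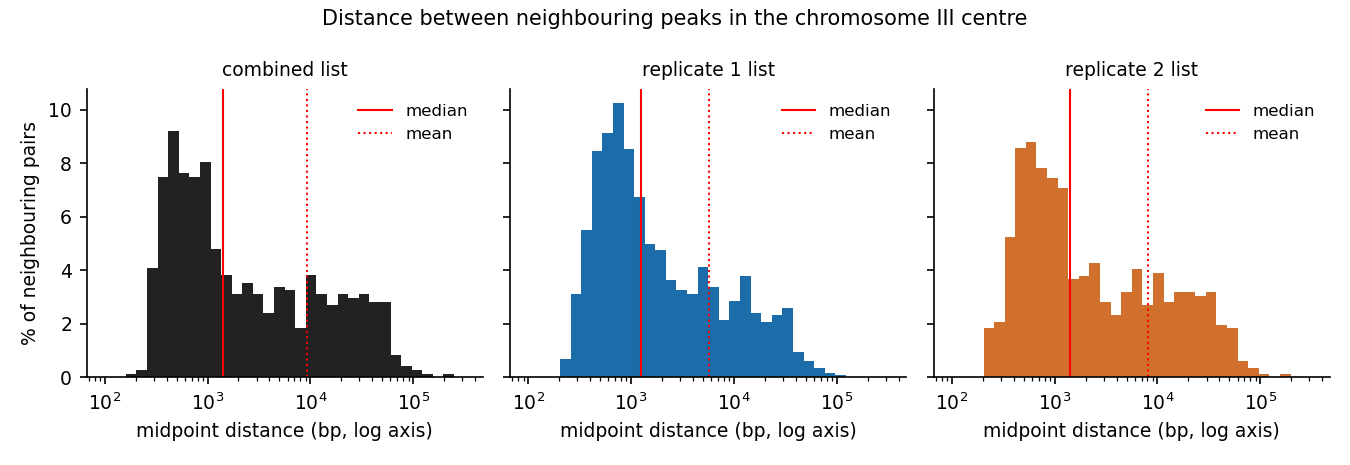
Distance between midpoints of neighbouring peaks in the chromosome III centre (x axis, bp, log scale) as a percentage of pairs (y axis), in the combined list and the lists of replicates 1 and 2, with the median and the mean as lines. The highest bars lie below 1 kb, where 42.7% of combined pairs fall, and the mean (9340.4 bp in the combined list) stands far right of the median (1413.5 bp).

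Joined wherever under 1 kb separated the end of one peak from the start of the next, 487 of the 708 peaks (68.8%, 65.3 to 72.1%) belonged to 138 groups of 2 or more, called regions of several peaks below, and 221 were single. Over the whole combined list the share in such regions was 66.2%, so the centre of III was close to the background. In the centre the share was 72.1% in the replicate 1 list and 70.5% in the replicate 2 list, against 69.3% and 67.6% over these whole lists. Pairs made up 57 of the regions and triplets 38, and 29 regions with 5 or more peaks held 203 of the members (28.7%). A region had a median length of 1467 bp, of which a median of 60.4% was covered by peaks. All 138 together spanned 271 kb, or 4.10% of the centre. Every peak was in both replicates in 108 of the 138. Grouped and single peaks had nearly the same median score (3.64 and 3.60), and the grouped ones were wider (median 245 against 204 bp).

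After the region of 23 peaks, the next largest was a chain of 18 from 5834771 to 5845775, all in both replicates, where replicate 1 had 15 peaks and replicate 2 had 13. Its median combined score, 2.72, was below that of the whole centre (3.62), so many weak sites stood together there. A chain of 12 from 6132235 to 6140564 had a higher median of 4.37, and 10 of its peaks were in both. Regions of 8 peaks ran from 4947207 to 4951493 and from 5947772 to 5952314. Those with 7 peaks ran from 4193565 to 4196876, from 5619607 to 5623938, from 9664305 to 9668370 and from 9700900 to 9705788, each with all 7 in both replicates. Of these 9 largest regions, the last was the most filled, with 78.3% of its length under combined peaks.

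Between the clusters lay long stretches with few sites. Of the 707 gaps between neighbouring peaks, 108 were longer than 20 kb and together made up 69.7% of the centre, and 25 were longer than 50 kb and made up 28.4%. The longest ran 238 kb from 6626539 to 6864865. It was not empty in the replicates, which held 10 and 5 peaks there, with best scores of 6.23 in replicate 1 and 4.38 in replicate 2. The next was 137.5 kb long, from 9956923 to 10094443, with 2 replicate 1 peaks and 1 replicate 2 peak. The third, from 9271676 to 9390970, was 119 kb long and also held 2 and 1.

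The fourth gap, from 6170451 to 6278461, was 108 kb long and held 2 replicate 1 peaks and 3 replicate 2 peaks, with best scores of 8.74 and 8.31. The next was the one in the Hox stretch, 84.2 kb from 7770205 to 7854405, with 2 peaks in replicate 1 (best score 5.32) and none in replicate 2. The sixth, from 4110074 to 4191255, differed most between the lists among these 6, with 8 replicate 1 peaks (best score 8.77) and none in replicate 2. Over all 25 gaps longer than 50 kb, replicate 1 held 81 peaks (43.1 per Mb) and replicate 2 held 26 (13.8 per Mb), and 3 of the gaps held none in either. Taken from each replicate list itself, the longest gap was 102 kb in replicate 1, from 6695798 to 6798170, and 162 kb in replicate 2, from 6695231 to 6857379. Both lie inside the longest gap of the combined list.

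Most sites were narrow. Combined peaks of the centre had a median width of 229.5 bp, with 25% of them at or under 182 bp and 25% at or over 345 bp. Replicate 1 peaks were 236 bp and replicate 2 peaks 252 bp wide in the median, and 146 bp was the narrowest in each list. Only 17 of the 708 (2.40%, 1.50 to 3.81%) were wider than 1 kb, against 2.05% of the whole combined list. The widest ran from 4017955 to 4020054 (2100 bp, score 6.78) and stood alone, with 1 peak in each replicate (scores 26.1 and 9.72). The next widest ran from 9701730 to 9703526 (1797 bp, score 2.38), from 8124215 to 8125999 (1785 bp, score 2.77), from 8982736 to 8984261 (1526 bp, score 5.68) and from 6570116 to 6571619 (1504 bp, score 2.18). These other 4 were parts of regions of 4 to 7 peaks, and 3 of them scored below the median of the centre.

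Some replicate peaks were divided in the combined list. In replicate 1, 56 of the 1161 peaks overlapped several combined peaks (4.82%), and in replicate 2, 57 of the 819 (6.96%). The whole lists had 678 of 16140 (4.201%) and 609 of 9817 (6.204%), so the centre was close to this background. Among centre peaks wider than 1 kb the counts were 15 of 27 in replicate 1 (55.6%, 37.3 to 72.4%) and 28 of 40 in replicate 2 (70.0%, 54.6 to 81.9%). Over the whole lists they were 238 of 393 (60.6%) and 235 of 392 (59.9%), within both intervals of the centre. The widest peak of either replicate in the centre, from 6566934 to 6573284 in replicate 1 (6351 bp, score 9.31), held 5 combined peaks of 212 to 1504 bp and 5 replicate 2 peaks, the widest of them 3507 bp. The replicate 1 peak from 9700786 to 9704644 (3859 bp) also held 5 combined peaks, and that from 7728999 to 7730657, inside the region of 23, held 4. In replicate 2 the peak from 5837359 to 5839457 (2099 bp) held 5, and those from 7497587 to 7498937 and from 8126155 to 8128505 held 4 each. How many sites such a place counts for therefore depends on the list.

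The strongest sites of the centre were taken by the sum of their ranks in the replicate lists, so that high scores in both come from the choice. The first was the peak from 3867414 to 3867672, with 40.7 in replicate 1 and 34.0 in replicate 2. The second was the isolated Hox-stretch site from 7854406 to 7854753 named above, and the third the peak from 4475366 to 4475738, with 34.9 and 27.8. The next pair, from 3854917 to 3855196 and from 4237701 to 4238168, both scored 30.5 and 24.2. Then came the peaks from 3857086 to 3857335 (28.8 and 30.0), from 4236215 to 4236909 (29.6 and 25.4), from 4369386 to 4369774 (30.9 and 21.2), from 6551202 to 6552181 (29.8 and 22.2) and from 7710040 to 7710779 (29.1 and 23.6). Of these 10, 7 lay in the left of the 3 equal parts of the centre, which held 266 of all 708 members. All 7 were left of 4.5 Mb, a limit set with their positions known. The Hox stretch, which held 45 of all members, had 2 of the 10. With 10 chosen peaks these counts are a description only. At the ceiling of the combined score, 9.03, were 7 of the 10. The exceptions were those from 3857086 (9.01), from 4236215 (7.72) and from 4369386 (6.78). The eighth centre peak at the ceiling, from 5637296 to 5637722, was not among the 10, with 29.8 in replicate 1 and 9.72 in replicate 2. The latter score was below those of the 10 in replicate 2, though within the highest 25% of the centre's replicate 2 peaks (7.43 to 34.02).

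At the 470 sites with exactly 1 peak in each list (66.4% of the members), replicate scores followed each other, with a Spearman's rho of 0.69 and a Pearson's r of 0.79 across sites. The midpoints of the replicate peaks there differed by a median of 18.5 bp (quartiles 8.12 and 38.0 bp), and by 50 bp or less at 83.0% of the sites. The combined peak was narrower than both replicate peaks at 80.4% of them (median widths 227 bp in the combined list, 283 bp in replicate 1 and 284 bp in replicate 2). Over the whole combined list such sites made up 68.1% of peaks. There 81.5% had replicate midpoints within 50 bp, and at 71.9% the combined peak was narrower than both (67.1% in the arms of III). Each such site had passed the threshold in all lists, and sites of 1 library share its depth.

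**Figure D4:**
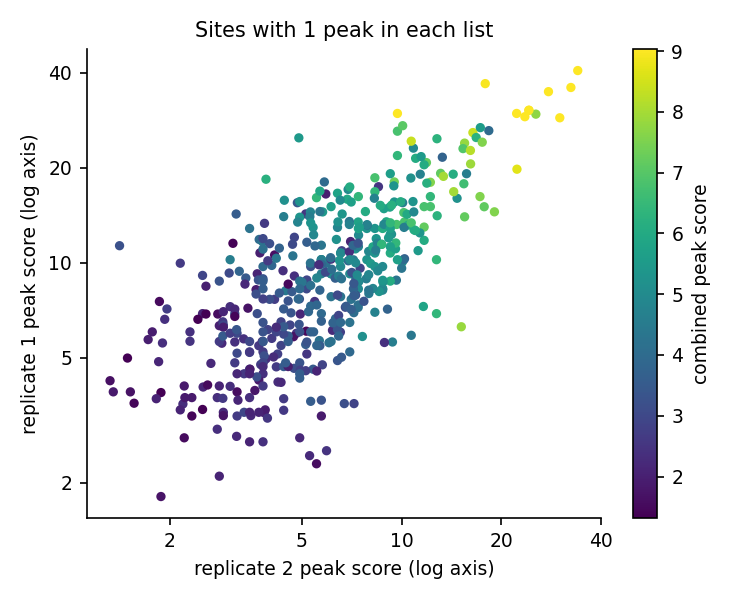
Peak score in replicate 1 (y axis, log scale) against replicate 2 (x axis, log scale) at the 470 sites of the chromosome III centre with 1 peak in each list, coloured by the combined score. Scores rise together (Spearman's rho 0.69), and the sites at the ceiling of the combined score lie towards the upper right.

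Nearly all members were found in both replicates. By an overlap of at least 1 bp, 657 of the 708 (92.8%, 90.7 to 94.5%) had a partner in each, against 90.4% of the whole combined list. Another 45 (6.36%) were found in replicate 1 alone, 6 (0.847%) in replicate 2 alone, and 0 in neither. The combined list comes from the same libraries, so this is no independent check of its peaks. Peaks in replicate 1 alone were narrower and weaker (median 162 bp, score 2.93) than those in both (236 bp, 3.75). In the lowest 25% of combined scores 85.9% (80.0 to 90.2%) were in both, and in the highest 25% 99.4% (96.9 to 99.9%). The shares of grouped peaks (93.0%, 90.4 to 94.96%) and of single ones (92.3%, 88.0 to 95.1%) had overlapping intervals.

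The 6 members in replicate 2 alone all belonged to regions of several peaks. Over the whole combined list 80.3% of the 71 peaks in replicate 2 alone did so, which 6 peaks cannot be told apart from. The 6 members ran from 4612383 to 4612556, 5078070 to 5078270, 5948822 to 5948975, 7959194 to 7959403, 8480257 to 8480434 and 8802354 to 8802585. Their combined scores were 1.69 to 4.10, with replicate 2 scores between 3.19 and 10.5. The site from 8802354 to 8802585 had the highest of these replicate 2 scores, and that from 5948822 to 5948975 lay in a region of 8 peaks.

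The replicate lists held many further peaks in the centre that the combined list left out. Of the 1161 replicate 1 peaks, 641 (55.2%, 52.3 to 58.0%) overlapped a combined peak. Another 131 (11.3%) had a replicate 2 partner but no combined peak, and 389 (33.5%) had neither. In the arms of III these 3 shares were 50.9%, 4.67% and 44.4%, and over the whole replicate 1 list 51.9%, 7.76% and 40.3%. Of the 819 replicate 2 peaks, 587 (71.7%, 68.5 to 74.7%) overlapped a combined peak, 139 (17.0%) had a replicate 1 partner only, and 93 (11.4%) had neither. In the arms they were 86.5%, 9.57% and 3.98%, and over the whole replicate 2 list 78.5%, 13.2% and 8.32%. The replicate 1 peaks with a partner but no combined peak scored 4.95 in the median and were 188 bp wide, against 8.80 and 304 bp for those with a combined peak. For replicate 2 the values were 3.14 and 175 bp, against 6.11 and 307 bp. The share with a partner went with the score. In the lowest 25% of replicate 1 scores 38.5% (33.1 to 44.2%) had a replicate 2 partner, and in the highest 92.8% (89.2 to 95.2%). In replicate 2 the shares were 74.6% (68.3 to 80.1%) and 100% (98.2 to 100%).

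Against the arms of III, the rest of that chromosome, the centre was sparser, but the left and right arms differed from each other. The centre held 107 combined peaks per Mb, against 136 (128 to 145) in the arms, a ratio of 0.784. The ratio was 0.705 in replicate 1 and 0.952 in replicate 2, where the intervals of 115 to 133 per Mb in the centre and 122 to 139 in the arms overlap. The left arm alone held 176 combined peaks per Mb (163 to 190) and the right arm 93.8 (83.9 to 105). The centre was thus below the left arm in each list, with ratios of 0.609 in the combined list, 0.584 in replicate 1 and 0.761 in replicate 2. Relative to the right arm it was higher in the combined list and in replicate 2 (ratios 1.14 and 1.31) and lower in replicate 1 (0.911).

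High scores were rarer in the centre than in the 2 arms pooled in each list. The right arm by itself stood nearer to the centre than the left arm did. The median score was 3.62 in the centre and 4.60 in the arms in the combined list, 6.07 and 7.78 in replicate 1, and 4.93 and 6.13 in replicate 2. The right arm alone had medians of 3.93, 6.06 and 4.93 in these lists, and the left arm 5.26, 8.74 and 6.98. At the ceiling of the combined score stood 8 of 708 centre peaks (1.13%, 0.574 to 2.21%), against 68 of 976 arm peaks (6.97%, 5.53 to 8.74%) and 2.68% of the whole list. The left arm had 8.87% there (6.92 to 11.3%) and the right arm 3.11% (1.70 to 5.62%), whose interval overlaps that of the centre. Among the top 5% of scores of the whole list stood 2.12% of centre peaks (1.29 to 3.47%) and 11.1% of arm peaks (9.25 to 13.2%) in the combined list. The shares were 3.01% (2.18 to 4.16%) and 8.32% (7.12 to 9.69%) in replicate 1, and 4.52% (3.30 to 6.16%) and 10.2% (8.43 to 12.3%) in replicate 2. Of these arm peaks the left arm held 94 of 108 in the combined list, 123 of 148 in replicate 1 and 79 of 95 in replicate 2, which are 14.4%, 11.0% and 13.1% of its own peaks. For the right arm the shares were 4.35% (2.61 to 7.17%), 3.78% (2.57 to 5.52%) and 4.92% (3.05 to 7.85%), and in each list this interval overlapped that of the centre. Overlap does not show that the shares are alike, and each of these right-arm shares was above that of the centre.

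**Figure D5:**
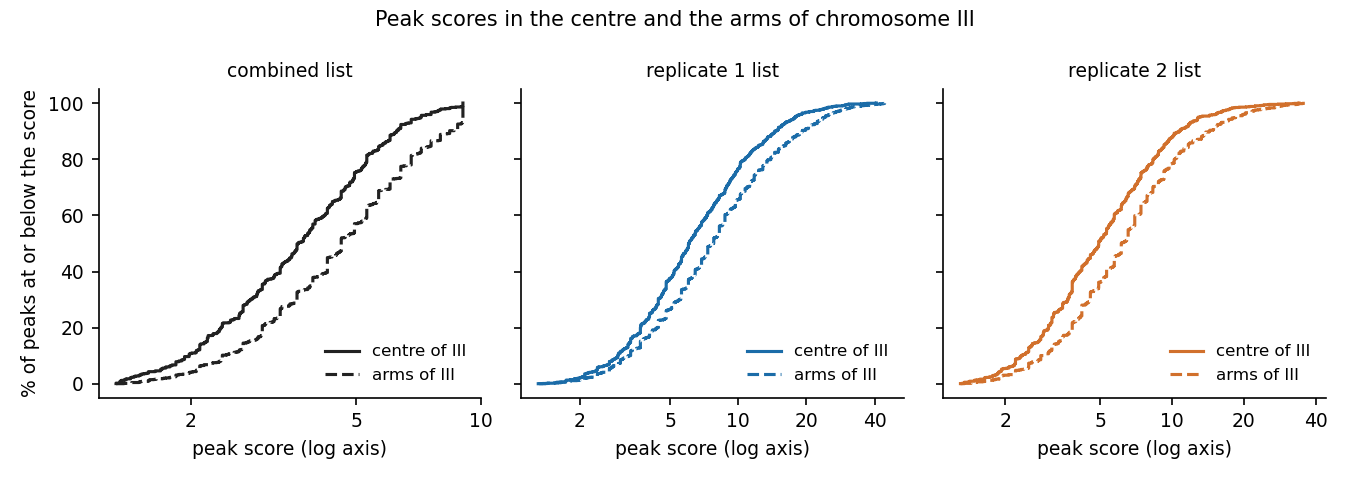
Percentage of peaks at or below a given score (y axis) by score (x axis, log scale) in the centre (solid) and the arms (dashed) of chromosome III, in the combined list and the lists of replicates 1 and 2. The solid curve lies left of the dashed one over most of the range in each list, with medians of 3.62 and 4.60 in the combined list.

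Replicate presence differed between centre and arms as well. Combined peaks of the centre were found in both replicates more often (92.8%, 90.7 to 94.5%) than those of the arms (87.0%, 84.7 to 89.0%). In the lists of the replicates this went in opposite directions. Of the replicate 1 peaks, 62.8% (60.0 to 65.5%) had a replicate 2 partner in the centre and 49.5% (47.1 to 51.8%) in the arms. Of the replicate 2 peaks, 88.2% (85.8 to 90.2%) had a replicate 1 partner in the centre and 95.7% (94.2 to 96.8%) in the arms. Over the whole lists the shares were 55.0% for replicate 1 and 91.2% for replicate 2, between those of the centre and the arms. Replicate 1 held 1.42 times as many peaks as replicate 2 in the centre, 1.91 times as many in the arms and 1.64 times as many over the whole genome. The part of depth and enrichment in this was not tested, since the lists hold no reads.

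The centre of III stood close to the centres of II and V, cut at boundaries recalled from a published recombination map and not checked against it here, in replicate presence, ceiling share and width, and it was denser than the centre of V. Its 107 peaks per Mb stood beside 104 (96.4 to 111.5) in the centre of II and 72.5 (67.4 to 77.8) in that of V. The ratio to V was 1.48 in the combined list, 1.46 in replicate 1 and 1.45 in replicate 2, while the ratio to II was 1.03, 1.08 and 1.07. With the edges of II and V moved by 200 kb inwards or outwards, the ratio was 1.47 to V either way, and 1.02 or 1.06 to II. The share of peaks in both replicates was 92.8% in the centres of III and II and 94.0% (92.1 to 95.5%) in that of V. The ceiling share was 1.13% in the centre of III, 0.810% (0.372 to 1.76%) in that of II and 1.17% (0.615 to 2.20%) in that of V. Median widths were 229.5, 237 and 234 bp, and replicate 1 held 1.42, 1.41 and 1.40 times as many peaks as replicate 2, in the order III, II and V.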

How the data were processed

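Positions were analysed from 3 deposited lists, 1 for each LET-418 ChIP replicate and 1 combined list of the series. The submitters' processing notes name BWA and ce10, and per the file headers positions are on WormBase WS220 and the caller is MACS. Not stated are versions, threshold, use of the input and the way of combining replicates. The deposited peak score has no stated scale.

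Overlap meant at least 1 bp, distances ran between midpoints, and peaks under 1 kb apart were joined. The arms of III are all positions outside the centre, up to the rightmost peak end. The edges of the centres of II and V were recalled from a published recombination map and not checked against it. Named are the 10 peaks with the best replicate ranks, the 5 widest, with ties the 8 largest regions and the 5 densest and sparsest bins, all sites of the 7.5 to 7.9 Mb stretch, the 6 longest gaps, replicate peaks holding 4 or more combined peaks, and members in replicate 2 alone. Members, lists and comparisons were chosen with earlier results of these data known. No significance test was run. The counting was tested on simulated data. The tools were matplotlib 3.10.9, SciPy 1.17.1, pandas 2.3.3 and NumPy 2.4.6 in Python 3.11.15. Sequences and nearest genes are not reported, since no genome or annotation of WS220 was used.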

Additional observations from a re-analysis of the deposited data

How the results depend on the processing

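With a replicate left out, so that the other one's list stands for the combined list, the density of the centre (107 per Mb) was 124 to 175, the ratio to the arms (0.784) 0.705 to 0.952, the ratio of the 7.5 to 7.9 Mb stretch to the rest of the centre (1.06) 0.922 to 0.925, the median distance (1413.5 bp) 1244 to 1400.2 bp, the share in regions of several peaks (68.8%) 70.5 to 72.1%, the median width (229.5 bp) 236 to 252 bp, and the longest gap (238 kb) 102 to 162 kb. When only peaks not below their list's median score were kept, which leaves fewer, the density was 47.6 per Mb, the ratio to the arms 0.538, the stretch ratio 0.832, the median distance 7720.0 bp and the median width 259 bp. The share in both replicates was 67.1% with a reciprocal overlap of 50%, 90.4% with midpoints within 500 bp and 85.4% under that score threshold in all 3 lists. The stretch ratio was 1.17 in covered bases, 1.11 and 1.26 with the edges 100 kb to the left and right, and 0.631 with regions and single peaks counted once. Without the largest region of the stretch it was 0.534, but there the rest of the centre kept its own regions. The stretch ratio thus fell on either side of 1. The share in regions was 57.6% when joined under 500 bp and 77.7% under 2 kb, which follows from the distance. The ratio to the arms was 0.821 in covered bases and 0.767 with edges 200 kb inwards, where the density was 105 per Mb. It was 0.609 against the left arm and 1.14 against the right. The ratios against 1 arm and without the largest region, and the other edges of II and V, were chosen after seeing the data. The cause of the other changes was not tested. No paired analysis was possible because only 1 group has peak lists. Without read counts the depth is unknown.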
